A study of Mus musculus with 6 samples.

Results

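Open chromatin was examined at the 66 mouse genes that had the most accessible sites around them, in lineage-negative bone marrow cells with and without Mel18. The genes were chosen by counting rows of the deposited peak table per annotated gene symbol and keeping symbols with at least 40 rows, out of 19013 symbols. From these genes the sites more than 1 kb and at most 200 kb from the annotated transcription start were taken, which gave 2667 distal peaks of 109859 peaks in all. The choice used the number of peaks and their distances, not the reads in them. The genes had 40 to 93 rows each, with Foxp1 at the top, and 22 to 87 distal peaks each, with a median of 40. Accessibility was the only readout, so whether these sites act as enhancers was not measured, and the loci are called peak-dense here.

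The assay was ATAC-seq, where the transposase Tn5 cuts open DNA and tags it with adapters, so that reads pile up at accessible sites. Lineage-negative cells are bone marrow cells that lack the surface markers of mature blood lineages, and the labels describe them as primary stem and progenitor cells. One library was made from each of 6 mice, 3 with a conditional Mel18 knockout in the blood system and 3 wildtype. Mel18, the protein of the Pcgf2 gene, is a subunit of a Polycomb repressive complex. The Cre line, the deleted exons, any inducing treatment, and the strain, age and sex of the mice were not given in the sources used here. The cells are a mixture, so fewer cells of a type and fewer open copies of a site per cell cannot be told apart.

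A gene that works in many cell types or in a dose-sensitive way is often surrounded by many distal regulatory sites, each open in some of the cell types. In blood, dense clusters of such sites are known around genes for transcription factors, signalling receptors and survival regulators. Polycomb complexes are best known for repressing developmental genes at their promoters, and they also bind some distal sites. The distance to a gene start does not show which gene a distal site controls.

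The proximal promoters of 3 transcription factors among these genes are shown because they are the points from which the distal sites were measured and carry peaks of their own. Runx1 (a master regulator of blood stem cell formation) has 2 well separated starts, Etv6 (an ETS-family repressor needed by adult blood stem cells) had the largest positive log2 fold change of the 66 genes, and Jun (an AP-1 subunit) had the strongest promoter peak. Each run is the RefSeq sequence from 250 bases before to 50 bases after the start, on the gene's own strand, build GRCm38.p6. Capitals mark matches to 1 of 5 motifs searched on both strands, which were TGTGGT for RUNX factors, CCGGAAGT for ETS factors, AGATAA for GATA factors, TGANTCA for AP-1 and TGACGTCA for CREB-type factors.
Runx1, upstream start, chr16:92826025-92826324, minus strand: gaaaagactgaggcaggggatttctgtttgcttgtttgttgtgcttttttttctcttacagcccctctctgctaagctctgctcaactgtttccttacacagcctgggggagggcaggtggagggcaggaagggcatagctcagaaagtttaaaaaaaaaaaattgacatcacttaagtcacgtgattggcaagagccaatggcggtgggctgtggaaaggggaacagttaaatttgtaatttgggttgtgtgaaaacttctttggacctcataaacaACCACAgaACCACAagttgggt
Runx1, downstream start, chr16:92697280-92697579, minus strand: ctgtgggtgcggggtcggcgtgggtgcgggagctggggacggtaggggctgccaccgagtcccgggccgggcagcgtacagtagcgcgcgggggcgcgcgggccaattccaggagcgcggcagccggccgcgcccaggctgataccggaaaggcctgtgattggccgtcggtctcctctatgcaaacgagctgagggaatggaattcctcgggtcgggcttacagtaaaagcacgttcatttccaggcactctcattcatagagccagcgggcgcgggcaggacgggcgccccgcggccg
Etv6, chr6:134035450-134035749, plus strand: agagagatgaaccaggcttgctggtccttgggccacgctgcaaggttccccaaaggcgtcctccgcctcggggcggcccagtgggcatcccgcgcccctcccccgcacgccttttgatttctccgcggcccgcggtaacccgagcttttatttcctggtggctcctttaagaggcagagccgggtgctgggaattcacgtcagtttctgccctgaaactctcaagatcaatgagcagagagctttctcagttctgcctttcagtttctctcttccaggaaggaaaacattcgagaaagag
Jun, chr4:95052173-95052472, minus strand: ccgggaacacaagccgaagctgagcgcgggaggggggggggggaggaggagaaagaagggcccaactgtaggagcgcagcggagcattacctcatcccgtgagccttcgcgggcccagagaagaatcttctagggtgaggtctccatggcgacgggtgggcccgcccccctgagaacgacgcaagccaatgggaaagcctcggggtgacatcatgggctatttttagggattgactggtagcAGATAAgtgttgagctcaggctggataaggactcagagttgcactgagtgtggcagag
The upstream Runx1 promoter held 2 RUNX motifs, the Jun promoter held 1 GATA motif, and the other 2 windows held none of the 5 motifs. No match overlapped another motif. The promoter table held 92 starts for 52 of the 66 genes. The RUNX letters occurred in 7.61% of these 92 windows and in 16.8% of all 32851 windows in the table. For the GATA letters the shares were 11.96% and 11.2%, for AP-1 7.61% and 7.81%, for ETS 2.17% and 3.89%, and for CREB-type 1.09% and 1.79%. A match is a description of the letters and not of binding.

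The peak over the upstream Runx1 start held 29.3, 35.8 and 31.1 CPM (read counts divided by library size, which was scaled by TMM, the trimmed mean of M-values) in knockout libraries 1 to 3, against 46.0, 40.8 and 32.0 CPM in wildtype libraries 1 to 3. At the downstream start the values were 26.9, 27.1 and 23.3 CPM in knockout, against 23.2, 26.7 and 33.6 CPM in wildtype. The groups overlapped at both starts, with log2 fold changes of -0.30 ± 0.145 and -0.11 ± 0.158 (SE; edgeR, adjusted p = 0.573 and 0.899). The Etv6 promoter held 58.9, 58.7 and 60.8 CPM in knockout, against 58.5, 57.3 and 57.3 CPM in wildtype. The knockout values all lay above the wildtype ones by a small margin (log2 fold change 0.04 ± 0.0839, SE; adjusted p = 0.933). The Jun promoter held 176, 171 and 175 CPM in knockout, against 205, 201 and 195 CPM in wildtype. All 3 knockout libraries were below all 3 wildtype libraries at Jun, and the difference did not pass the threshold (log2 fold change -0.20 ± 0.0543, SE; adjusted p = 0.187).

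By RefSeq type, 54 of the 66 genes were protein coding, 8 were long non-coding RNA genes and 4 were microRNA genes. The 51 protein-coding genes matched by symbol had a median length of 174 kb, against 22.4 kb for 15584 other protein-coding genes with rows in the table. Of the 2667 distal peaks, 1129 lay in an intron of the gene they were assigned to, 184 in an intron of another gene and 1354 in no annotated intron. The genes lay on 20 chromosomes. Their median distal peak lay 61.2 kb from the start, against 20.5 kb for the 82038 other distal peaks, and 56.3% of their distal peaks were beyond 50 kb, against 23.1% elsewhere. The peaks were of like size to other distal ones, with a median of 3.42 CPM against 3.19 CPM and a median width of 199 bp against 189 bp.

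Some loci were long and sparse and others compact. Foxp1, which encodes a forkhead transcription factor and spans 597 kb, had 87 distal peaks, 68 of them in its own introns. Zfp217 (a zinc finger transcription factor) packed 45 distal peaks into 147 kb, and 37 of them followed each other with gaps of at most 10 kb. By the same gap the longest runs were 41 peaks over 135 kb at Fam49b (a Rac1 regulator) and 41 peaks over 120.0 kb at Tomm20 (a receptor of the mitochondrial import machinery). Adgrl2, an adhesion G protein-coupled receptor gene, had the widest span of rows, 1109 kb, with 33 of its 70 rows beyond 200 kb. Some of the dense loci were neighbours, namely Irf2bp2 with Tomm20, Fam49b with Asap1, Ly86 with Rreb1, Bcl2l11 with Gm14005, and Adgrl2 with Gm1653. Assignment to the nearest start divides such a stretch between 2 genes. Irf2bp2 and Tomm20 together had 100 rows over 410.0 kb of chromosome 8.

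Some of the 12 non-coding genes had most of their distal peaks inside a protein-coding gene, and others had none there. Mir1907 had 22 distal peaks and all 22 lay within Trps1, a GATA-type repressor gene. All 41 distal peaks of 2010106C02Rik lay within Prkce, which encodes a protein kinase C, and 20 of the 30 distal peaks of Mir1904 lay within Pde4d, a cyclic AMP phosphodiesterase gene. The rows of Mir6388 spanned 43 annotated immunoglobulin heavy chain variable genes on chromosome 12. The protein-coding gene nearest to Gm17746 was Id2 (an inhibitor of helix-loop-helix transcription factors), 33.1 kb away. Gm14005 is listed by RefSeq as Morrbid, and it lay beside Bcl2l11, the gene for the death-promoting protein BIM. Mature sequences were matched for 2 of the 4 microRNA genes and are shown because these names label loci whose peaks lie in or near other genes. Capitals mark the seed, bases 2 to 8, and the seeds differed.
Mir1904: gUUCUGCUccucuggagggagg
Mir5130: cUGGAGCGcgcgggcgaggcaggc
Mir6388 and Mir1907 are named only.

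The libraries held 14487908 to 16709921 peak reads in knockout and 12000808 to 13769335 in wildtype. Wildtype library 3 stood apart over these 2667 peaks, with a mean Spearman correlation to its own group of 0.822, against 0.926 to 0.938 for knockout libraries and 0.863 to 0.875 for the other wildtype libraries. It stood apart in the same way over all peaks (0.859, against 0.939 to 0.949 for knockout libraries and 0.894 to 0.896 for the other wildtype libraries). Promoter peaks of lineage marker genes were summed to check the label. Stem and progenitor markers, summed over 7 genes with a promoter peak, held 113 to 117 CPM in knockout and 112 to 142 CPM in wildtype. Granulocyte and monocyte markers (8 of 10 genes; none listed at Prtn3 and Ly6g) held 111 to 122 CPM in knockout and 55.8 to 125 CPM in wildtype, with wildtype library 3 the lowest. Erythroid markers (5 of 8 genes; none listed at Hba-a1, Hbb-bt and Alas2) held 48.2 to 81.0 CPM in knockout and 47.9 to 119.5 CPM in wildtype, with wildtype library 3 the highest. T cell markers (6 of 8; none listed at Cd3e and Cd3d) held 37.8 to 49.7 CPM in knockout and 46.6 to 76.4 CPM in wildtype, NK cell markers (6 of 7; none at Ncr1) 49.2 to 57.9 and 51.3 to 85.7 CPM, and B cell markers (6 genes with a promoter peak; none at Vpreb1) 15.9 to 24.4 and 25.1 to 39.5 CPM, with all knockout libraries below all wildtype libraries. Stromal markers (2 of 5; none at Cxcl12, Col1a2 and Lepr) held 12.8 to 15.2 CPM in knockout and 12.8 to 15.5 CPM in wildtype, and endothelial markers (1 of 5, Tek) 0.579 to 1.62 and 0.522 to 1.06 CPM. The part of these marker differences in the values below was not tested.

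Summed over each locus, distal accessibility was close between the genotypes at all 66 genes. Reads of the distal peaks were added up per gene, and the sums of all 16392 genes with such a peak were fitted together. At an adjusted p under 0.05, 0 of the 66 genes were called higher and 0 lower in knockout (edgeR quasi-likelihood test), against a background of 0.0% of all genes. The smallest adjusted p among the 66 was 0.983. At an unadjusted p under 0.05 there were 0 higher and 0 lower among the 66, against 4.37% of all genes in either direction (394 higher and 322 lower). DESeq2 called 0 of the 66, and 0 higher and 1 lower among all genes. Log2 fold changes ran from -0.18 at Itpr2 to 0.24 at Etv6 with a median of 0.01, against a median of 0.03 over all genes. Of the 66 genes, 35 lay above 0 and 31 below, and 54.8% of all genes lay above 0. That split turned on the scaling, with 60 of the 66 above 0 (76% of all genes) by library size alone, 48 (48.2%) with trended normalization and 33 (51.5%) with DESeq2 size factors, so the sign of a small value at a locus is not firm. The 95% intervals of all 66 lay within 1.5-fold in either direction, the widest bounds being 0.735-fold at Itpr2 and 1.46-fold at Mir1907. Changes of that size or smaller at a locus are not excluded by these intervals.

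**Figure D1:**
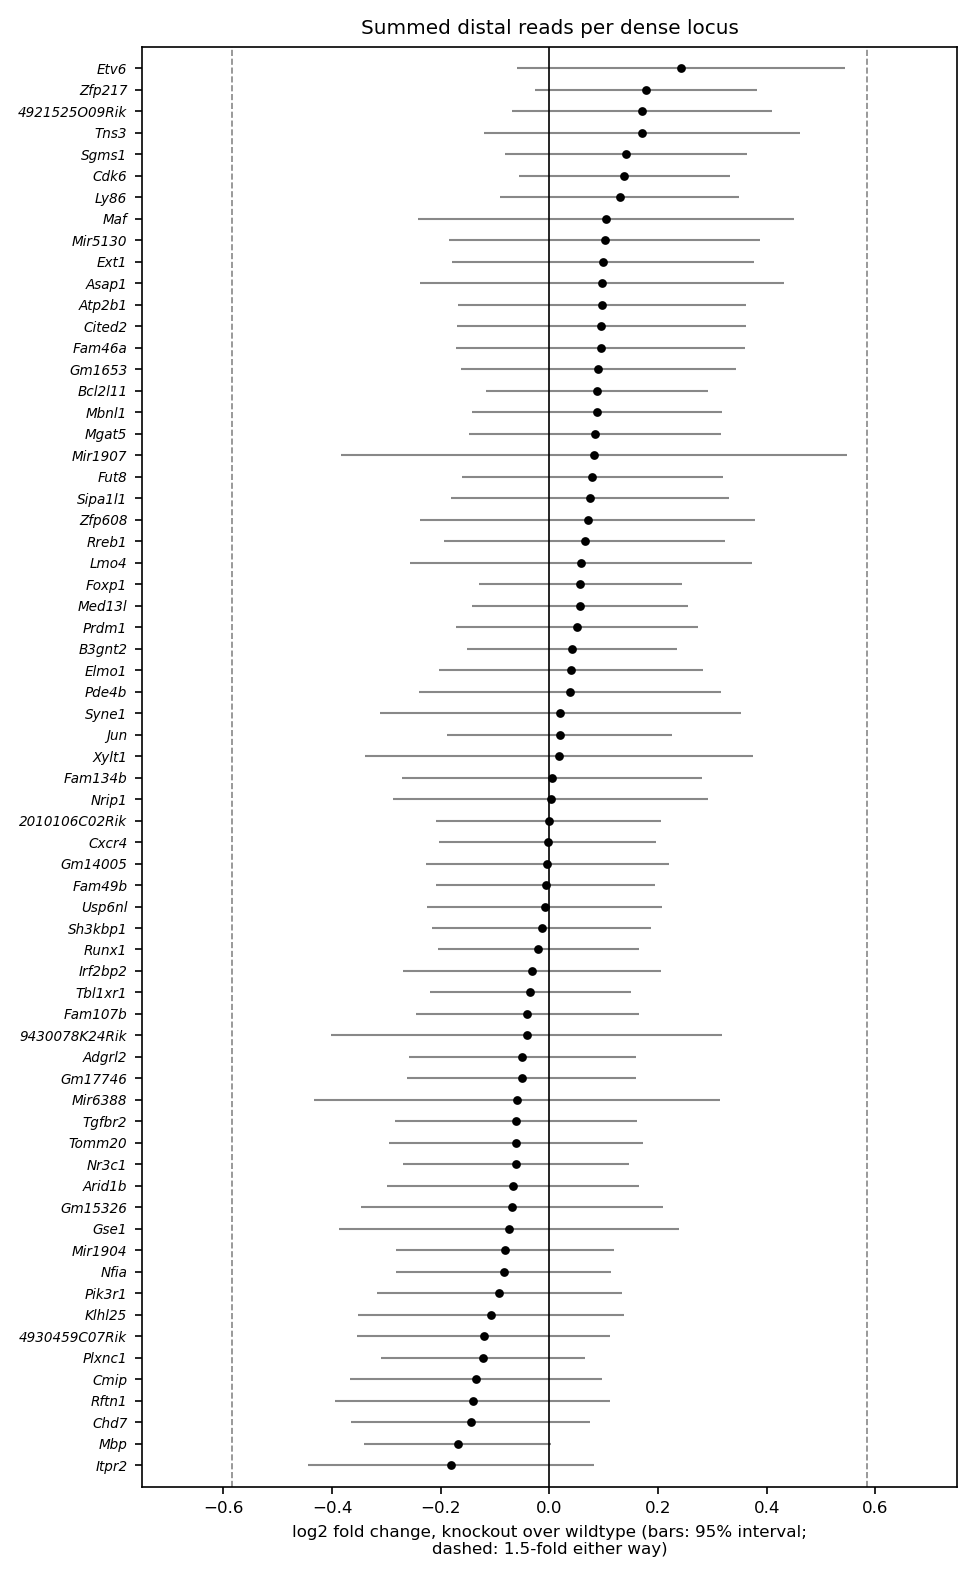
Log2 fold change, knockout over wildtype, of the summed distal reads of each of the 66 genes (points) with 95% intervals (bars) from the edgeR fit. The points run from -0.18 at Itpr2 to 0.24 at Etv6, and every bar lies between the dashed lines at 1.5-fold either way.

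Groups that do not overlap were few. The knockout libraries all lay above the wildtype libraries at 3 genes, Zfp217, Cdk6 and 4921525O09Rik, against a background of 7.31% of all genes. They all lay below at 2 genes, Mbp and Plxnc1, against a background of 4.37%. As shares of the 66 genes both counts are under the background.

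**Figure D2:**
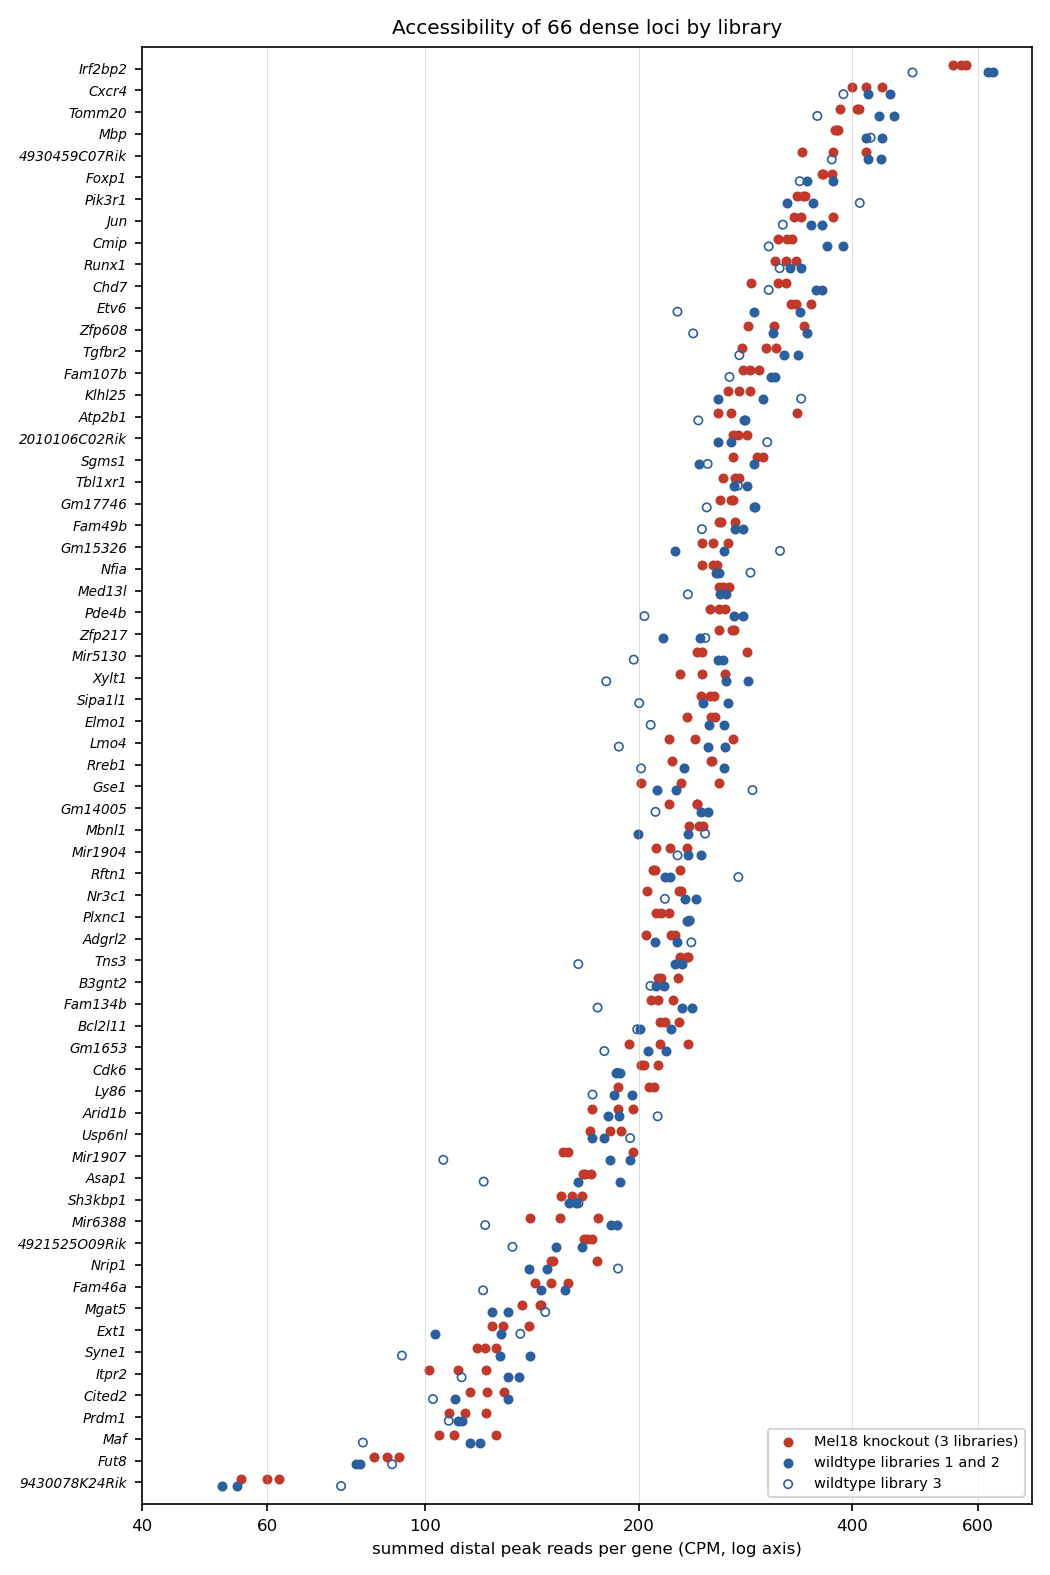
Summed distal reads per gene (CPM, log axis) in each library, with knockout libraries in red above the wildtype libraries in blue, and wildtype library 3 as an open circle. Genes are ordered by mean level, from 9430078K24Rik at 59.2 CPM in knockout and 60.9 CPM in wildtype to Irf2bp2 at 567 CPM in knockout and 579.8 CPM in wildtype, and the open circles account for much of the width of the wildtype values.

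Irf2bp2, which encodes a corepressor that binds the interferon regulatory factor IRF2, had the highest summed distal CPM of all genes in the table. It held 554, 569.6 and 577 CPM over 48 peaks in knockout, against 622, 632 and 486 CPM in wildtype. The knockout values lay between the wildtype ones (log2 fold change -0.03 ± 0.106, SE). Such sums grow with the number and width of the peaks, and its mean per peak, 11.9 CPM, was the highest of the 66 genes. Its neighbour Tomm20 held 384, 407 and 408 CPM in knockout, against 436, 457 and 357 CPM in wildtype (log2 fold change -0.06). In both genes wildtype library 3 was the lowest of the 6 libraries.

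Among transcription factors of blood stem and progenitor cells, 3 were peak-dense. Foxp1 held 363, 374 and 364 CPM in knockout, against 345, 375 and 337 CPM in wildtype. Runx1 held 334, 322 and 311 CPM in knockout, against 326, 339 and 316 CPM in wildtype. The groups overlapped at both, with log2 fold changes of 0.06 ± 0.0831 and -0.02 ± 0.0826 (SE). Etv6 held 334, 328 and 349 CPM in knockout, against 290.6, 338 and 227 CPM in wildtype. Its log2 fold change, 0.24 ± 0.134 (SE; adjusted p = 0.983), rested partly on the low wildtype library 3, without which it was 0.11. Of its 54 distal peaks, 45 had a value above 0, as did 59.2% of all 2667 distal peaks of the dense loci. All 35 genes of the fixed list of such factors had a distal peak, and 0 were called, 1 being higher and 0 lower at unadjusted p under 0.05, with a median log2 fold change of 0.06.

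The lymphoid factors among the dense loci were Maf, a basic leucine zipper factor of T helper cells and macrophages, and Prdm1, which drives plasma cell differentiation. Maf held 105, 110.1 and 126 CPM over 23 peaks in knockout, against 119.5, 116 and 81.9 CPM in wildtype. Prdm1 held 108, 114 and 122 CPM over 31 peaks in knockout, against 113, 111 and 108 CPM in wildtype. The groups overlapped at both, with log2 fold changes of 0.10 ± 0.154 and 0.05 ± 0.0997 (SE). Without wildtype library 3 the value at Maf was -0.05. Of 36 listed lymphoid factors 33 had distal peaks and 0 were called, 1 being higher and 2 lower at unadjusted p under 0.05, with a median of -0.08.

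The myeloid and erythroid factors were Jun, Nfia, Nr3c1 and Rreb1. Jun held 331, 339 and 375 CPM in its distal peaks in knockout, against 349, 363 and 319 CPM in wildtype (log2 fold change 0.02 ± 0.0924, SE). The distal sum thus overlapped between groups while the promoter peak given above did not. The strongest promoter peaks of 58 dense genes had a median log2 fold change of -0.24, with 48 of them below 0. How many promoter peaks do not overlap between groups is not given here. Nothing particular to Jun is read from its promoter value. Nfia, a nuclear factor I gene active in erythroid commitment, held 255, 246 and 258 CPM in knockout, against 259.6, 257 and 288 CPM in wildtype. Nr3c1, the glucocorticoid receptor gene, held 206, 229 and 228 CPM in knockout, against 241, 233 and 218 CPM in wildtype. Their log2 fold changes were -0.08 and -0.06. Rreb1, a RAS-responsive zinc finger gene, held 253, 253 and 223 CPM in knockout, against 232, 263 and 202 CPM in wildtype, with overlap between the groups. All 33 listed genes of this kind had distal peaks and 0 were called, 1 being higher and 0 lower at unadjusted p under 0.05, with a median of -0.03.

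Chromatin regulators were represented by Chd7, an ATP-dependent remodeler, and Arid1b, a subunit of the BAF remodeling complex. Chd7 held 288, 315 and 322 CPM in knockout, against 362, 356 and 305 CPM in wildtype. Wildtype library 3 lay within the knockout range and the other wildtype libraries above it (log2 fold change -0.14 ± 0.0981, SE). Arid1b held 196, 187 and 172 CPM in knockout, against 188, 181 and 213 CPM in wildtype (log2 fold change -0.07). Of 41 listed chromatin regulators, all with distal peaks, 0 were called, 1 being higher and 0 lower at unadjusted p under 0.05, with a median of -0.01.

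Kinase genes were Pik3r1, the regulatory subunit of phosphoinositide 3-kinase, and Cdk6, the cyclin-dependent kinase that lets stem cells leave quiescence. Pik3r1 held 343, 335 and 341 CPM in knockout, against 324, 352 and 409.6 CPM in wildtype. The knockout libraries lay close together inside the wildtype range. Cdk6 held 213, 202 and 203 CPM in knockout, against 186, 189 and 187 CPM in wildtype. The groups did not overlap at Cdk6, and the difference missed the threshold (log2 fold change 0.14 ± 0.0864, SE; adjusted p = 0.983). Without wildtype library 3 the value at Cdk6 was again 0.14. Of 62 listed kinases and phosphatases 61 had distal peaks and 0 were called, 1 being higher and 3 lower at unadjusted p under 0.05, with a median of -0.03.

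Regulators of small GTPases and the cytoskeleton were Elmo1, a partner of the DOCK activators of Rac, the focal adhesion protein Tns3, the Arf GTPase-activating protein Asap1, and the Rap GTPase-activating protein Sipa1l1. Elmo1 held 256, 253 and 234 CPM in knockout, against 251, 264 and 208 CPM in wildtype. Tns3 held 234, 229 and 235 CPM in knockout, against 225, 230.4 and 165 CPM in wildtype. Wildtype library 3 was the lowest at both. Asap1 held 172, 167 and 168 CPM in knockout, against 164, 189 and 121 CPM in wildtype, and Sipa1l1 held 255, 252 and 245 CPM in knockout, against 246, 268 and 200.4 CPM in wildtype. Here too wildtype library 3 was the lowest, and the log2 fold changes of the 4 genes, from 0.04 at Elmo1 to 0.17 at Tns3, include it. Without it they were -0.05 at Elmo1, 0.03 at Tns3, -0.06 at Asap1 and -0.03 at Sipa1l1. Of 86 listed genes of this kind 84 had distal peaks and 0 were called, 0 being higher and 1 lower at unadjusted p under 0.05, with a median of 0.04.

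Receptor genes were Cxcr4, the receptor that holds stem cells in the marrow through the chemokine Cxcl12, Tgfbr2, the type II receptor for transforming growth factor beta, and Plxnc1, a semaphorin receptor. Cxcr4 held 399.9, 418 and 441 CPM in knockout, against 421, 452 and 389 CPM in wildtype. Tgfbr2 held 279.9, 302 and 312 CPM in knockout, against 335, 321 and 277 CPM in wildtype. Both overlapped between the groups, with log2 fold changes of -0.0032 ± 0.0894 and -0.06 ± 0.0996 (SE). Plxnc1 held 221, 215 and 212 CPM in knockout, against 235, 234 and 236 CPM in wildtype. The groups did not overlap, and the difference of -0.12 ± 0.0837 (log2, SE; adjusted p = 0.983) missed the threshold. Of 83 listed receptors 81 had distal peaks and 0 were called, 2 being higher and 4 lower at unadjusted p under 0.05, with a median of 0.02.

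Signal modulators were Itpr2, a calcium release channel gated by inositol trisphosphate, and Pde4b, a cyclic AMP phosphodiesterase. Itpr2 held 101, 111 and 122 CPM in knockout, against 136, 131 and 113 CPM in wildtype. Wildtype library 3 fell inside the knockout range (log2 fold change -0.18 ± 0.117, SE). Pde4b held 252, 259.5 and 265 CPM in knockout, against 281, 272 and 204 CPM in wildtype (log2 fold change 0.04, and -0.09 without wildtype library 3). Of 86 listed adaptors and modulators 83 had distal peaks and 0 were called, 3 being higher and 1 lower at unadjusted p under 0.05, with a median of 0.03.

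The remaining genes with the smallest p in the higher direction were Zfp217, 4921525O09Rik and Sgms1, none of which passed. Zfp217 held 271, 260.0 and 272 CPM in knockout, against 217, 244 and 248 CPM in wildtype. Of its 45 distal peaks, 38 had a value above 0, against 59.2% of all 2667. The sum differed by 0.18 ± 0.0914 (log2, SE; adjusted p = 0.983), and by 0.09 without wildtype library 1. 4921525O09Rik, a non-coding gene whose nearest protein-coding gene is Gadd45g, held 169, 172 and 167 CPM in knockout, against 153, 166 and 133 CPM in wildtype (log2 fold change 0.17, and 0.09 without wildtype library 3). Sgms1, which encodes a sphingomyelin synthase, held 299, 293 and 272 CPM in knockout, against 243, 290.3 and 250.2 CPM in wildtype (log2 fold change 0.14, and 0.06 without wildtype library 1). All 50 distal peaks of Sgms1 lay in its own introns.

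The remaining genes with the smallest p in the lower direction were Mbp and Cmip. Mbp encodes myelin basic protein in glia, and its locus also gives rise to Golli transcripts in blood cells. It held 382, 378 and 380.1 CPM in knockout, against 439.8, 418 and 424 CPM in wildtype. The knockout libraries lay close together (coefficient of variation 0.407%) and below all wildtype libraries, the difference being -0.17 ± 0.077 (log2, SE; adjusted p = 0.983) with a 95% interval from -0.34 to 0.0035. The log2 fold change of Mbp was -0.05 by library size alone and -0.08 with trended normalization. With trended normalization and without wildtype library 3 it was -0.008. Cmip, an adaptor gene, held 314, 329 and 324 CPM in knockout, against 369, 388 and 305 CPM in wildtype (log2 fold change -0.13, and -0.23 without wildtype library 3). By library size alone Cmip was at -0.01, and with trended normalization at -0.05. Itpr2, Chd7 and Plxnc1 were at -0.06, -0.02 and -0.00012 by library size alone.

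Among the other genes with most rows, Tbl1xr1, a subunit of the nuclear receptor corepressor complex, held 273, 263 and 277 CPM in knockout, against 284, 273 and 276 CPM in wildtype. Adgrl2 held 222, 205 and 225 CPM in knockout, against 226, 211 and 237 CPM in wildtype. The groups overlapped at both, with log2 fold changes of -0.03 and -0.05. Mbnl1, a splicing regulator gene, held 243, 236 and 246 CPM in knockout, against 199.6, 235 and 248 CPM in wildtype (log2 fold change 0.09). Mir6388 held 140.5, 155 and 175 CPM in knockout, against 187, 183 and 122 CPM in wildtype, and Gm17746 held 270.1, 272 and 260.4 CPM in knockout, against 290.3, 291 and 249 CPM in wildtype. Both non-coding loci overlapped between the groups, with log2 fold changes of -0.06 and -0.05. Without wildtype library 3 these were -0.23 and -0.12.

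The count of rows separates genes with like values. The 6 symbols just inside the limit, with 40 rows, had log2 fold changes from -0.14 at Rftn1 to 0.10 at Ext1. The 8 symbols just outside, with 39 rows, had -0.06 at S1pr1 to 0.23 at Vav3, with the stem cell factor gene Erg at 0.10.

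None of the 2667 distal peaks was called higher or lower at an adjusted p under 0.05, against a background of 0.0% of all 109859 peaks, and the smallest adjusted p was 0.0989 (edgeR quasi-likelihood test). DESeq2 called 0 as well, but left all except 32 of these peaks without an adjusted p. At an unadjusted p under 0.05, 115 peaks were higher (4.31%), against 3.1% of all peaks, and 88 were lower (3.30%), against 5.97% of all peaks. Promoter peaks make up much of the lower side of that background, and among the other distal peaks the shares were 3.56% higher and 2.68% lower. The balance of the 2667 peaks moved with the scaling, to 251 higher and 47 lower by library size alone and to 77 higher and 106 lower with trended normalization. The shares of all peaks under those scalings are not given here. With all libraries and the main scaling, the following counts per locus were found. At an unadjusted p under 0.05, 37 of the 66 loci had sites on both sides, 17 only on the higher side, 5 only on the lower side and 7 on neither. A locus with more peaks has more sites that can pass, so nothing particular to dense loci is read from this. Elmo1 had 6 higher and 1 lower of 58 peaks, Foxp1 5 and 2 of 87, and Mbnl1 5 and 1 of 51. Etv6 had 6 higher and 0 lower of 54, and Zfp217 5 and 0 of 45. Tomm20 had 1 higher and 5 lower of 49, Chd7 1 and 5 of 35, and Mbp 1 and 4 of 39. These counts are descriptions, since peaks of a locus share libraries.

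**Figure D3:**
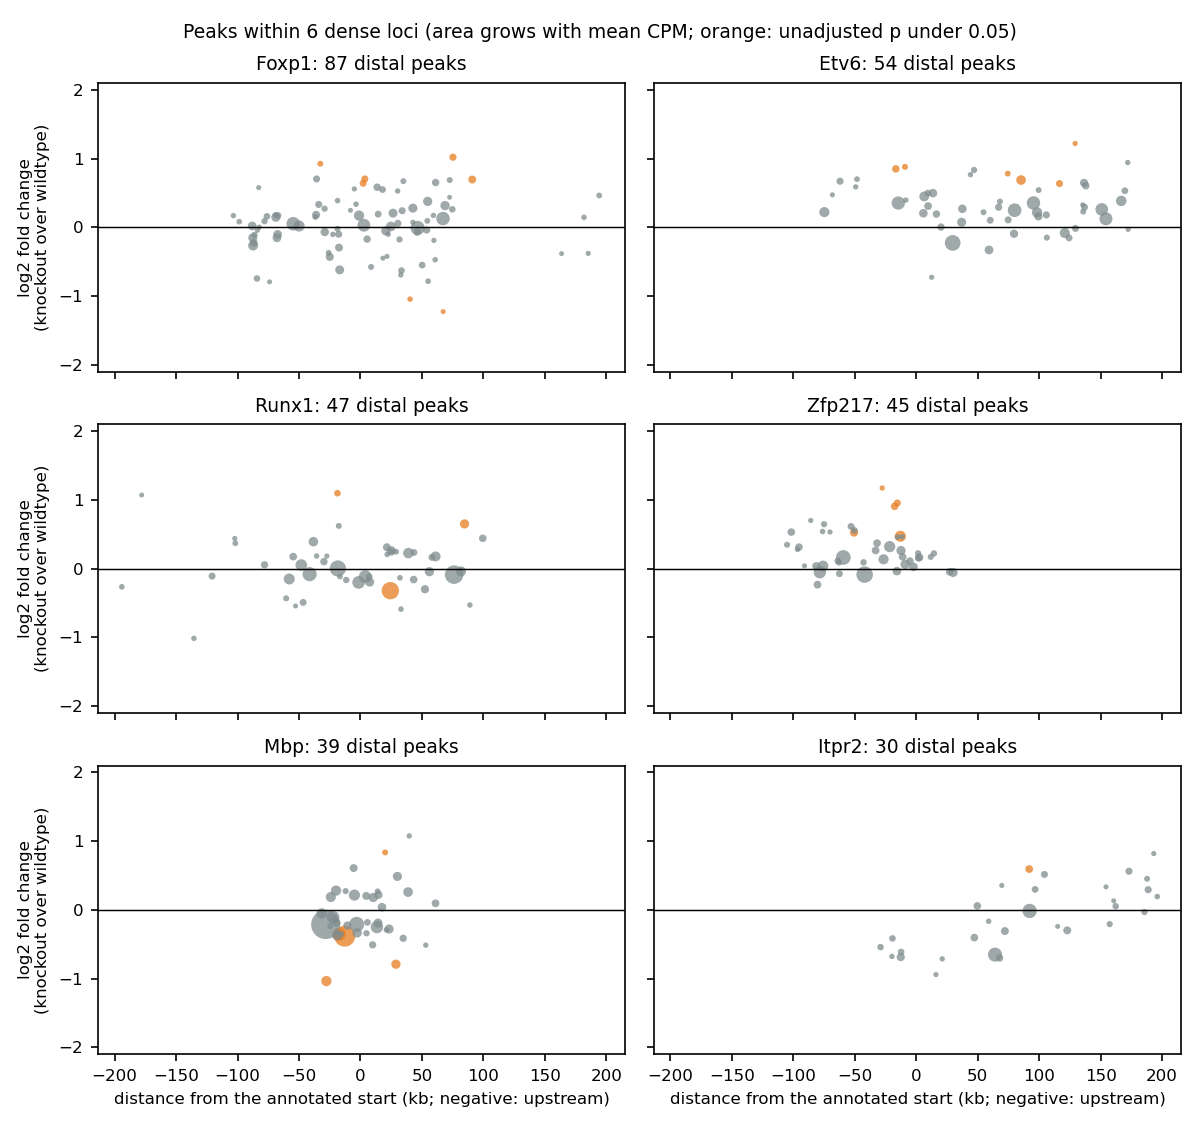
Log2 fold change of every distal peak against its distance from the annotated start at 6 loci, with point area growing with mean CPM and peaks at an unadjusted p under 0.05 in orange. Etv6 shows 6 orange peaks above 0 and 0 below and Zfp217 shows 5 and 0, Mbp shows 1 above and 4 below, and no peak in any panel passed the adjusted threshold.

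The 5 peaks with the smallest p on the higher side were weak sites. The Runx1 peak, in its intron at chr16:92715980-92716124 (mm10) and 18723 bp upstream of the nearer start, held 3.88, 3.69 and 4.24 CPM in knockout, against 1.42, 2.22 and 1.86 CPM in wildtype. The groups did not overlap, and the difference did not pass (log2 1.10 ± 0.29, SE; edgeR, adjusted p = 0.183). A site 151297 bp upstream of Lmo4, a LIM-domain adaptor gene, held 4.46, 4.02 and 4.89 CPM in knockout, against 2.57, 1.97 and 1.71 CPM in wildtype (log2 fold change 1.10; adjusted p = 0.162). An intronic Nfia site, 67538 bp downstream of an annotated start inside the gene, held 2.90, 2.70 and 2.25 CPM in knockout, against 1.24, 1.11 and 0.82 CPM in wildtype (log2 fold change 1.31; adjusted p = 0.174). At all 3 sites the lowest knockout library lay above the highest wildtype library. The sites near Fam46a and Syne1 had log2 fold changes of 1.83 and 1.02, and the one of Syne1 lay in an intron of Esr1. At the Fam46a site the wildtype libraries held only 4, 3 and 5 reads, against 20, 18 and 19 in knockout.

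On the lower side the smallest p of all 2667 peaks belonged to a site 191881 bp from an annotated start of Adgrl2, at chr3:148762616-148762891. It held 7.88, 9.17 and 9.26 CPM in knockout, against 18.3, 13.3 and 20.4 CPM in wildtype. The groups did not overlap, and the difference was -0.98 ± 0.212 (log2, SE; edgeR, adjusted p = 0.0989). In the authors' deposited table this peak also had the smallest adjusted p of the 2667, at 0.200, and 0 of them passed there. An intronic Mbp site held 5.62, 7.92 and 6.24 CPM in knockout, against 13.2, 10.2 and 17.1 CPM in wildtype (log2 fold change -1.04; adjusted p = 0.132). A site near Klhl25 held 3.13, 3.03 and 3.67 CPM in knockout, against 9.65, 4.53 and 9.32 CPM in wildtype (log2 fold change -1.26; adjusted p = 0.134). At both, the highest knockout library lay below the lowest wildtype library, which the choice by smallest p favours and which adds no support. The strong Nr3c1 site 2698 bp upstream of an annotated start inside the gene held 31.0, 34.6 and 36.0 CPM in knockout, against 52.4, 41.0 and 49.7 CPM in wildtype (log2 fold change -0.49; adjusted p = 0.148). An intronic Arid1b site had -1.77 (adjusted p = 0.180).

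Counts of called peaks depended on wildtype library 3. Without it, 10 of the 2667 peaks were called higher, against 0.29% of all peaks, and 27 lower, against 2.45% of all peaks. The 27 lower ones fell at 21 loci, with 3 each at Mbp, Irf2bp2 and Cmip, and the 10 higher ones at 10 loci. The Cxcr4 site 120746 bp upstream of its start, chosen after its values were seen, shows the pattern. It held 46.8, 52.2 and 61.6 CPM in knockout, against 77.5, 81.4 and 36.5 CPM in wildtype. Wildtype libraries 1 and 2 lay above all knockout libraries and wildtype library 3 below them. Its log2 fold change was -0.28 (adjusted p = 0.810) with all libraries and -0.57 (adjusted p = 0.00154) without wildtype library 3. With a trended normalization as well, which evens out differences tied to how strong a peak is, 1 peak was called higher, at Sgms1, and 1 lower, at Itpr2. Without wildtype library 2, 4 were called lower, at Adgrl2, Klhl25, Fam49b and Tomm20, and 0 higher. The share of all peaks called is not given here for the trended fit or the fit without wildtype library 2. Nothing particular to the loci named for them is read from these calls.

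At 39 of the 66 genes the strongest distal peak was more than 50 kb from the annotated start. Of all their distal peaks, 56.3% were beyond 50 kb, so nothing particular to the strongest ones is read from this. Some of these strongest peaks still lay inside the gene, as at Sipa1l1 and Runx1. At 32 of the 58 genes with a promoter peak, the strongest distal peak was stronger than the strongest promoter peak. The 66 genes had a median of 40 distal and 2 promoter peaks, which favours a distal one, and other genes were not compared. The strongest distal peak of all lay inside Mbp, 28352 bp upstream of an annotated start within the gene, with 87.8 CPM in knockout and 101.9 CPM in wildtype. Sipa1l1 drew 33.5% of its distal reads from a peak 55991 bp from its start, with 84.6 CPM in knockout and 79.3 CPM in wildtype, while the strongest peak of Foxp1 held 5.80% of its sum. At Foxp1 that peak held 21.5, 22.5 and 18.3 CPM in knockout, against 22.8, 24.0 and 16.03 CPM in wildtype. At Tgfbr2 the strongest peak, 2971 bp upstream, held 24.8, 29.1 and 34.5 CPM in knockout, against 28.0, 31.6 and 14.4 CPM in wildtype. At both, wildtype library 3 was the lowest of the 6. The strongest peaks of Tbl1xr1, Adgrl2 and Mir6388 had log2 fold changes of -0.08, -0.02 and -0.06, with overlapping groups.

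The strongest promoter peaks of the same genes lay mostly below 0, as promoter peaks elsewhere did. The strongest promoter peak had a log2 fold change below 0 at 48 of 58 genes, with a median of -0.24 and values from -0.57 at Fam134b to 0.45 at Gm1653. None was called, and the count below 0 was 37 of 58 by library size alone and 38 of 58 with trended normalization. Of all 162 promoter peaks of these genes, 1 was higher and 23 were lower at an unadjusted p under 0.05. The lower share was 14.2%, against 19.1% of 21730 other promoter peaks, and the median was -0.08, against -0.15 for those. With trended normalization both medians were -0.07, and by library size alone that of the 162 turned to 0.04.

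Within each library, distal peaks of the dense loci stood nearer to their promoter peaks in knockout. Mean log2 CPM of distal minus promoter peaks was -1.24, -1.20 and -1.18 in knockout, against -1.33, -1.31 and -1.44 in wildtype. The groups did not overlap (means -1.21 ± 0.0326 and -1.36 ± 0.0684, SD, n = 3 each), and the two-sided exact permutation p was 0.1, the smallest that 3 against 3 allows. This measure was not computed for other genes. Median log2 fold changes were 0.06 for other distal and -0.15 for other promoter peaks, against 0.09 and -0.08 in the dense loci. Nothing particular to dense loci is read from it. The dense loci took 1.63%, 1.65% and 1.70% of peak reads in knockout, against 1.52%, 1.59% and 1.46% in wildtype, again with p = 0.1 by the exact test. The same held for all distal peaks, with 48.4% ± 0.221 of reads in knockout and 44.8% ± 1.66 in wildtype (SD, n = 3 each; exact permutation test, p = 0.1).

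Set against the other distal peaks, the dense loci showed no detectable difference between genotypes. Their mean log2 CPM exceeded that of other distal peaks by 0.0706, 0.118 and 0.133 in knockout, against 0.0643, 0.127 and 0.0812 in wildtype. The groups overlapped, with a knockout minus wildtype difference of 0.0165 (exact two-sided permutation test, n = 3 each, p = 0.7), and with at least 60 rows per gene in place of 40 it was -0.0187. Of all distal reads the dense loci took 3.43% ± 0.071 in knockout and 3.397% ± 0.0448 in wildtype (SD, n = 3 each; exact permutation test, p = 0.6). The median log2 fold change of their peaks was 0.09, against 0.06 for other distal peaks, and 0.03 against 0.00092 with trended normalization. Among the 2667 peaks, the 889 weakest had a median of 0.16, the 889 in the middle 0.11 and the 889 strongest 0.02. With trended normalization these medians were 0.02, 0.03 and 0.04.

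**Figure D4:**
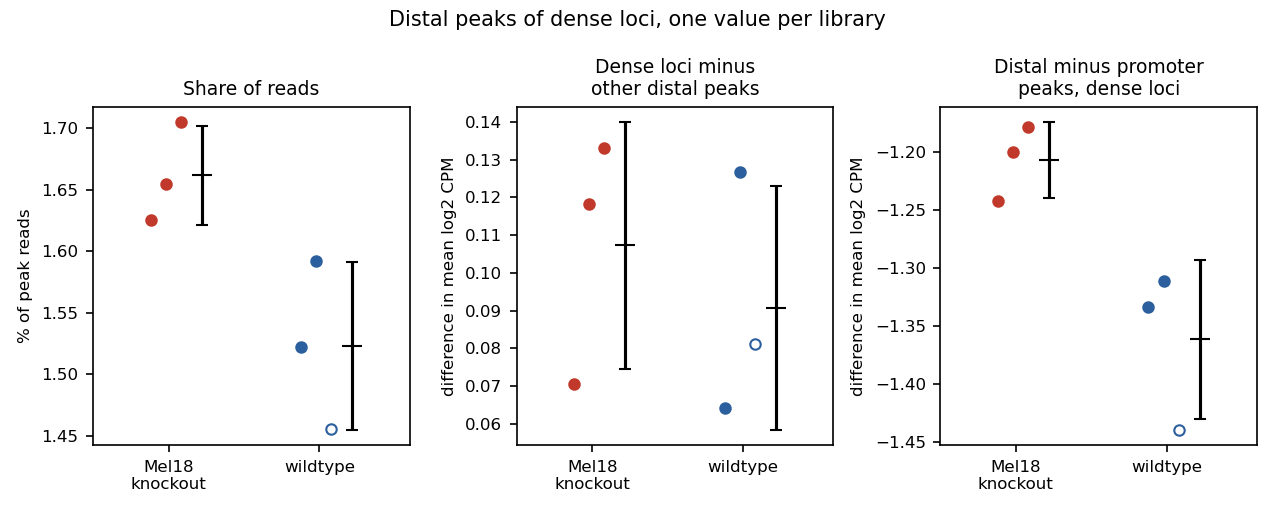
Values per library (points, wildtype library 3 open) with mean and SD (bars), knockout left of wildtype. The share of reads in dense loci lies between 1.63 and 1.70% in knockout and between 1.46 and 1.59% in wildtype, the difference from other distal peaks overlaps between the groups, and the distal minus promoter difference does not overlap. The vertical axes do not start at 0.

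The wildtype libraries varied more than the knockout libraries at these loci. The coefficient of variation of the summed CPM had a median of 4.54% in knockout and 9.68% in wildtype, and it was larger in wildtype at 55 of the 66 genes. Wildtype library 3 was the lowest of the 6 libraries at 37 genes and the highest at 15. Relative to the mean of the other wildtype libraries it ran from 0.563 at Mir1907 to 1.43 at 9430078K24Rik. Without it, the median log2 fold change of the 66 genes was -0.02, with 27 above 0, and 0 were called, against 1.51% of all genes.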

How the data were processed

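ATAC-seq of lineage-negative marrow from 3 Mel18 knockout and 3 wildtype mice was used, grouped by the genotype label. The submitters' processing notes list MACS2 2.1.1, Bowtie2 1.2.2, Trimmomatic 0.40, MultiQC 0.11.5, Picard and FastQC without saying what each did, and the build mm10. Some versions do not look like those of their tools. How reads were counted, shifted for Tn5 or deduplicated was not given in the sources used here. Each such step can move counts. The deposited table holds, per the file headers, raw read counts per peak and library, without normalization. The authors' log2 fold change, p-value and its adjusted form for each peak entered only where the text names them. Columns name a genotype and a number, not a mouse. Another 12 columns hold values per library and were left unused. Starts of peaks are printed counted from 1, and negative distances are upstream. A gene can have several annotated starts, and some distances were taken from a start inside the gene.

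Peaks, and sums of distal peaks per gene, were each tested over the whole table with edgeR 4.0.16 (R 4.3.3; quasi-likelihood, robust, TMM factors of the peak table), which gave every adjusted p without another name (Benjamini-Hochberg over all peaks or all genes, threshold 0.05). filterByExpr removed no peak. Log2 CPM used a prior count of 2. Values per library were compared by exact permutation. Trended normalization used loess offsets (span 0.3). Library size scaling moved the median of all gene sums to 0.15, against 0.03. DESeq2 1.42.0 and limma 3.58.1 (voom) were alternatives. Promoter peaks were those within 1 kb of a start.

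The genes, the 8 role lists (462 genes), the marker lists and the tests were chosen with earlier results of these data known. Named genes were the 10 with most rows, the 5 with the smallest p each way and up to 4 dense genes per list; named peaks were the strongest of the 5 genes with most rows and the 5 with the smallest p each way. Irf2bp2, Tomm20 and other genes outside this rule were chosen after their values were seen. Gene symbols matched RefSeq (GRCm38.p6) directly for 62 of 66 genes and by synonym for 4. On simulated gene sums, with changes placed at genes drawn from the whole table, 11 of 67 changes of 1.5-fold, 35 of 67 of 2-fold and 65 of 66 of 4-fold were recovered, with 2 false calls among 16192 unchanged sums. On simulated peaks the counts were 2, 12 and 59, with 1 false call among 109659 unchanged peaks. Some marker genes are not reported here.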

Additional observations from a re-analysis of the deposited data

How the results depend on the processing

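No dense gene or peak was called with other normalizations (library size, DESeq2 size factors, trended), tests (DESeq2, limma-voom), filters, distance window (50 kb), row limits (30 or 60) or rows with 1 symbol. DESeq2 gave an adjusted p to only 32 of the dense peaks, so at the other peaks it could call none. Leaving out each library in turn gave 0 to 10 peaks called higher and 0 to 27 lower, and 0 genes either way. Trended normalization without wildtype library 3, chosen after seeing the data, called 1 peak higher and 1 lower, and 1 gene higher, Zfp217 (log2 fold change 0.35, adjusted p = 0.0224, against 0.488% of all genes called), and turned Plxnc1 to 0.0126 (adjusted p = 0.964). The cause was not tested. At an unadjusted p under 0.05, 115 higher and 88 lower peaks became 251 and 47 by library size alone and 180 and 151 without wildtype library 3. In these settings 0 higher and 0 lower genes became 8 and 0, and 3 and 9. With trended normalization and without wildtype library 3 they became 21 and 0, where the median of the 66 genes was 0.11, against 0.0073 over all genes. The shares of all peaks and genes in those settings are not given here. Nothing particular to dense loci is read from these counts. With at least 60 rows the dense minus other distal difference was -0.0187 (exact permutation test, p = 0.7). Leaving out a library gave 0.104 to 0.173 percentage points for the difference in read share, 0.0032 to 0.0348 for dense against other distal peaks, and 0.115 to 0.179 for distal against promoter peaks. The 10 genes with the smallest p kept their direction without any 1 library. They were chosen by p in these same libraries, which favours a stable direction, so this is a description and not a test. No paired analysis was possible because the labels number the mice across both genotypes and the columns do not name a mouse. At these depths, simulated 2-fold changes were recovered at 17.9% of peaks and 52.2% of gene sums drawn from the whole table. The dense genes ranked high in summed distal reads among all 16392 genes (median rank 82.5). Recovery at the dense genes or their peaks alone was not measured, so these shares do not apply to them.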
